A study of Mus musculus with 45 samples.

Results

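The genes described here are Trp53, which encodes the transcription factor p53, and 9 genes that p53 is known to switch on directly: Mdm2, Cdkn1a, Ccng1, Btg2, Phlda3, Eda2r, Aen, Zmat3 and Trp53inp1. They were taken by gene symbol from the deposited count table and are 10 of its 28454 genes. All 10 were followed across all 45 libraries, and all 10 passed the filter on low counts in every comparison, although Eda2r passed through the groups in which it was high.

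The libraries were made from polyA RNA of mouse mammary tumour cell lines grown in plates, all going back to tumours of mice that carry an MMTV-cMYC transgene, in which the mouse mammary tumour virus promoter drives MYC in mammary epithelium. MYAZ16.1e, MYAZ12.3i and MYAZ6.6g came from mammary tumours, and a further line of MYAZ12.3i expressed NDI1, a yeast NADH dehydrogenase. Myc310 came from a single mammary tumour, LM1, LM2 and LM3 were grown out of lungs after Myc310 cells had been injected into the mammary fat pad (the study's methods name FVB/NJ mice as hosts of such injections), LM1-LM was grown out of lungs after injection of LM1, and LM2-LM and LM3-LM were described as its biological replicates (the labels write LM1_LM and MYAZ16_1e). Cells were seeded at 250000 per well, and the labels describe for every library a change of medium after 24 h that lasted 6 h. There were 3 cultures per line in control medium for all 11 lines, and MYAZ16.1e, Myc310, LM1 and LM1-LM were also kept for 6 h in medium without cysteine and cystine, with 3 cultures each. The 7 lines from Myc310 onwards are called the Myc310 lineage below. They go back to 1 tumour, so that a difference between them and the MYAZ lines compares 1 founder with 3, and the 3 cultures of a line are technical replicates. Where single lines were compared, the p-values measure the spread between these cultures. Where LM, LM-LM or MYAZ lines were taken as a group, the spread also holds that between lines. Each culture still entered as a sample there, so that these p-values count cultures and are too small for a statement about lines. Counts summed per line, the alternative with lines as replicates, are given beside several of them.

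In unstressed cells p53 protein is kept low by MDM2, a ubiquitin ligase that is itself a p53 target, so that the pair form a feedback loop. The ARF protein, encoded by Cdkn2a, holds MDM2 back when MYC is active, and stress kinases release p53 from MDM2. Freed p53 is controlled mainly at the level of the protein, and its activity in a cell is commonly read from the transcripts of its targets. Among these targets Cdkn1a (p21) inhibits cyclin-dependent kinases, Ccng1 (cyclin G1) recruits a phosphatase that acts on MDM2, Btg2 restrains proliferation, Phlda3 competes with AKT for membrane lipids, Eda2r is a receptor of the TNF receptor family, Aen is a nuclease of dying cells, Zmat3 binds RNA, and Trp53inp1 acts in stress responses and autophagy.

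Promoter sequence is shown for 3 of the targets because a match to the p53 half-site lies in their promoters and because they differ in how they moved. In the RefSeq promoter sequences (GRCm38.p6, the 250 bases before each start), 8 of the 10 members were matched, Zmat3 and Trp53inp1 being the others. The 10-base p53 half-site consensus, searched on both strands, was found for 5 of these 8 genes (Trp53, Mdm2, Cdkn1a, Ccng1 and Aen) and in 7.13% of all 32851 promoters. Members are counted per gene, with a match before any of its starts, and all promoters per start, so these shares have unlike units. Cdkn1a and Aen had 2 starts each. The p53 full-site consensus, 2 half-sites with a spacer of 0 to 13 bases, was found for 1 of the 8 genes, Cdkn1a, and in 0.0639% of all promoters. The element TGATGNAA, which ATF4 and CHOP bind, was found for none of the 8 genes and in 3.45% of all promoters. The E-box CACGTG, which MYC binds, was found for Aen and in 6.02% of all promoters. A match is a description of these letters and not of binding. Capitals mark the half-sites, and each sequence reads 5′ to 3′ on the strand of its gene.
Cdkn1a, chr17:29090876-29090967, plus strand: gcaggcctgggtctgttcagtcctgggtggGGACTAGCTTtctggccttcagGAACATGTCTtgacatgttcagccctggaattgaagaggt
Mdm2, chr10:117710905-117710974, minus strand: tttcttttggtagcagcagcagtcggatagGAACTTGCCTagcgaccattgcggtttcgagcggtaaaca
Ccng1, chr11:40755432-40755501, minus strand: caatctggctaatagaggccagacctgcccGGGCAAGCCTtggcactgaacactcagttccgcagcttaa
The half-sites of Cdkn1a began 73 and 51 bases before the upstream one of its annotated starts, and none was found before its other start. That of Mdm2 began 186 bases before its start and that of Ccng1 185 bases before.

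The libraries held 19517859 to 29019988 counts, with a median of 22899900, and no pair of cultures agreed within sampling noise. Levels are given as CPM (counts scaled to library size, here with TMM factors). Of the 6 epithelial markers, Krt8, Krt18 and Krt19 exceeded 1 CPM in every library while Epcam, Cdh1 and Cldn4 were near 0. In control medium the summed level of the 6 ranged from 332 to 1162 CPM in the MYAZ libraries, from 1360 to 1376 CPM in Myc310 and from 1010 to 2380 CPM in the lung-derived lines. The summed level of 5 leukocyte markers in control medium ranged from 4.08 to 6.31 CPM in the MYAZ libraries and from 9.34 to 19.6 CPM in the lung-derived lines. It was mostly Cd68 (2.70 to 18.7 CPM over all 45 libraries), with Ptprc, Cd74 and Lyz2 at or near 0. The sum of 5 alveolar markers reached 6.63 CPM at most. In control medium the sum of 8 fibroblast markers ranged from 7.46 to 98.1 CPM in the MYAZ libraries, from 1.70 to 2.16 CPM in Myc310 and from 15.1 to 217 CPM in the lung-derived lines. That of 5 endothelial markers, of which only Kdr exceeded 1 CPM, ranged from 3.57 to 7.08 CPM in the MYAZ libraries and was at most 0.97 CPM in the lineage. In control medium the epithelial sum, made of keratins, and the leukocyte sum were thus mostly higher and the endothelial sum lower in the lineage. Fibroblast markers were lowest in Myc310 and higher in all its lung-derived lines, and the part of these markers in the results was not tested. After deprivation MYAZ16.1e had 1340 to 1387 CPM of epithelial and 6.05 to 7.02 CPM of leukocyte markers. Deprived libraries of Myc310, LM1 and LM1-LM together had 1315 to 1615 CPM of epithelial and 2.68 to 29.2 CPM of fibroblast markers. In bulk libraries a higher level per cell and more cells that express a gene cannot be told apart.

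The first question was how p53 and its targets stood in lines of different origin before any deprivation. In control medium the Myc310 lineage held more of most p53 targets than the MYAZ lines, while Trp53 itself overlapped between them. In 8 of the 10 members, namely Mdm2, Cdkn1a, Ccng1, Phlda3, Eda2r, Aen, Zmat3 and Trp53inp1, all 21 control libraries of the Myc310 lineage lay above all 9 MYAZ libraries, which was so for 9.56% of the 13899 genes tested. Without Eda2r, which passed the filter through the lineage, these were 7 of 9 members. Btg2 overlapped as well.

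**Figure D1:**
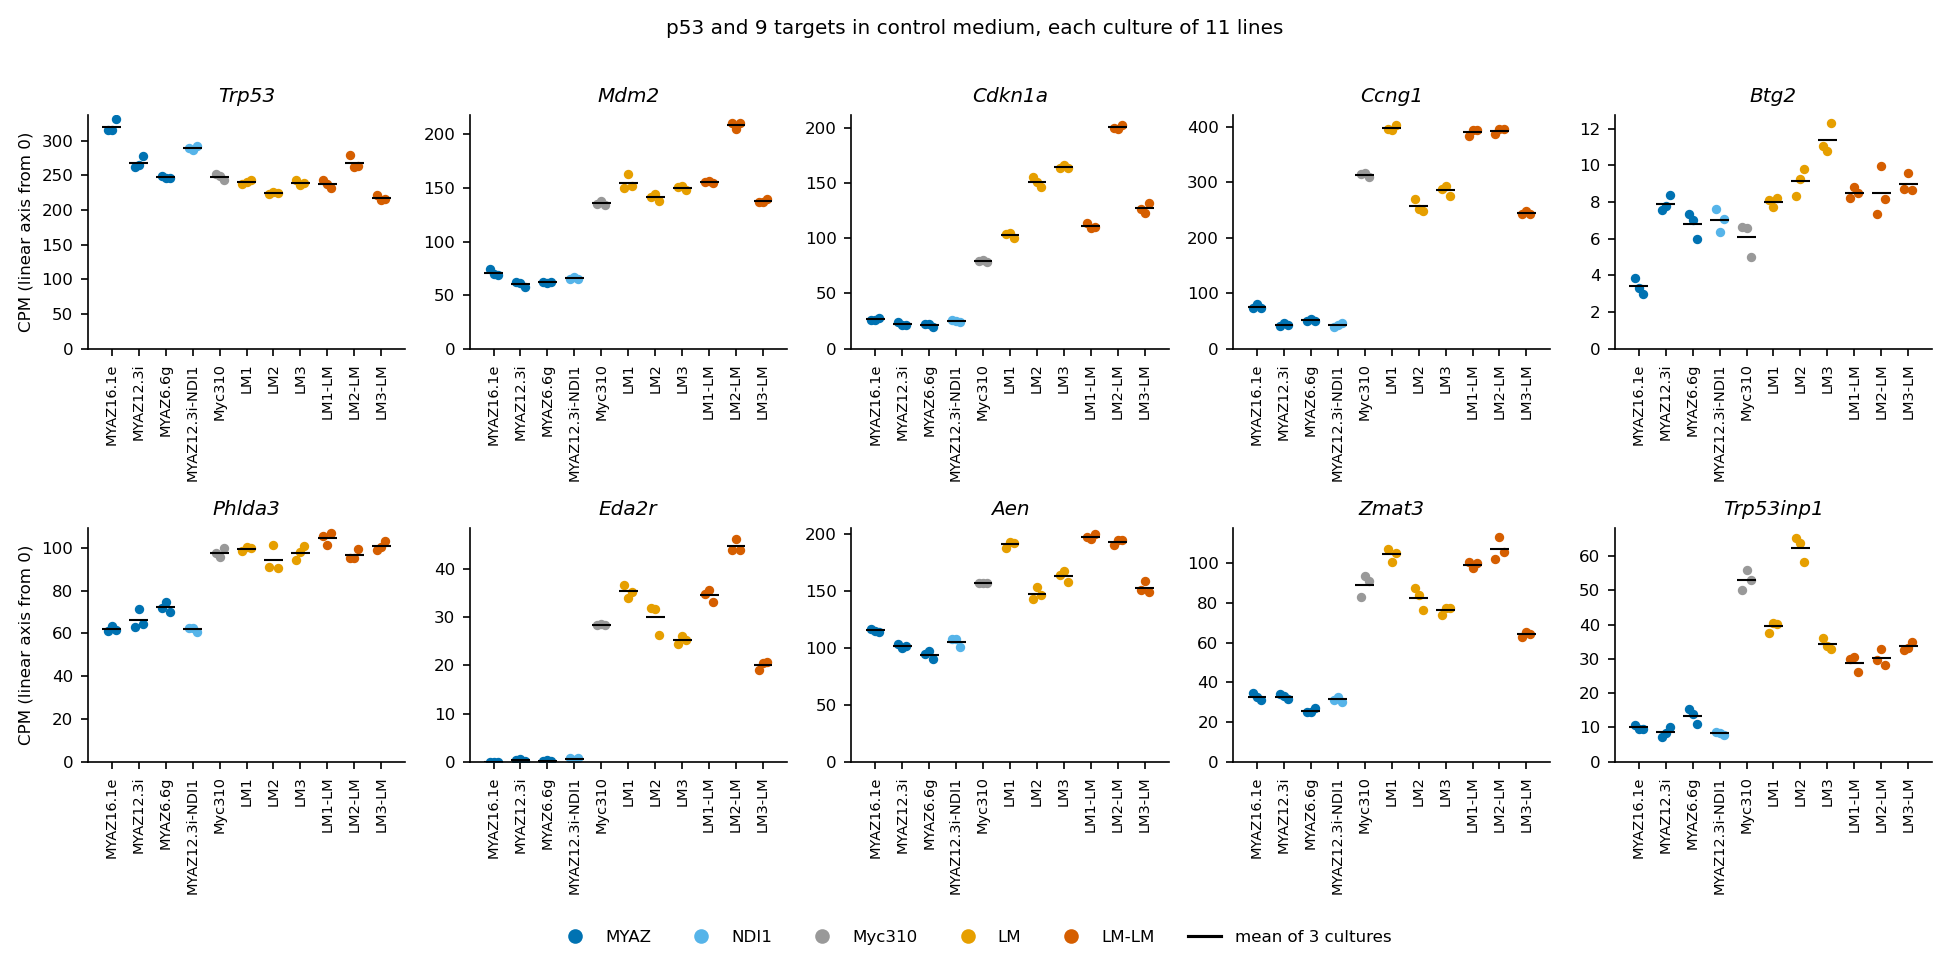
Level of Trp53 and its 9 targets (y axis, CPM on a linear axis from 0) in each of the 3 cultures of 11 lines in control medium (x axis), with points coloured by origin of the line and a black bar at the mean. For 8 genes every culture from Myc310 to LM3-LM lies above every culture of the 3 MYAZ lines, and Trp53 and Btg2 overlap.

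Trp53 (chromosome 11, 69580359 to 69591873, plus strand, ENSMUSG00000059552, as all coordinates here in GRCm38 with the GENCODE M21 annotation) had a mean over lines of 278 ± 37.6 CPM in the MYAZ lines (SD, n = 3 lines), 235 ± 8.78 CPM in the LM lines and 241 ± 25.4 CPM in the LM-LM lines, and Myc310 stood at 248 ± 3.98 CPM (SD, n = 3 cultures). MYAZ16.1e was highest with cultures at 315, 315 and 331 CPM, and LM3-LM was lowest with 222, 215 and 216 CPM, and in between the order did not separate the origins, since the cultures of MYAZ12.3i overlapped those of LM2-LM and the cultures of Myc310 those of MYAZ6.6g. Trp53 was lower in the LM lines than in the MYAZ lines by edgeR's quasi-likelihood test (log2 difference -0.25 ± 0.06 SE, Benjamini-Hochberg adjusted p = 0.000318). With the counts of each line summed, so that lines were the replicates, the call was lost (adjusted p = 0.161 for LM and 0.197 for LM-LM).

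Cdkn1a (chromosome 17, 29090976 to 29100727, plus strand, ENSMUSG00000023067) separated the lines most finely. Its cultures stood at 25.7, 26.2 and 27.7 CPM in MYAZ16.1e, at 23.7, 21.5 and 21.4 CPM in MYAZ12.3i and at 22.6, 22.0 and 19.7 CPM in MYAZ6.6g. Those of Myc310 stood at 79.7, 80.1 and 78.9 CPM and those of LM1 at 104, 105 and 101 CPM. LM2 held 151 ± 4.39 CPM, LM3 165 ± 1.73 CPM, LM1-LM 111 ± 2.31 CPM, LM3-LM 128 ± 4.69 CPM and LM2-LM, the highest, 201 ± 1.88 CPM (SD, n = 3 each). From LM2-LM down to MYAZ12.3i no neighbouring lines overlapped, and only MYAZ12.3i and MYAZ6.6g could not be ordered. Cdkn1a was 3.39-fold higher in Myc310, 6.00-fold higher in LM and 6.19-fold higher in LM-LM than in the MYAZ lines by edgeR's quasi-likelihood test (adjusted p = 2.03e-09, 1.58e-15 and 9.70e-16). Over 20 alternatives, counts summed per line among them, the adjusted p of each alternative's test was at most 0.0140, 0.000454 and 0.000395. A noncoding gene annotated on the opposite strand overlaps Cdkn1a, and the library kit kept strand.

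Mdm2, the feedback ligase (chromosome 10, 117688875 to 117710758, minus strand, ENSMUSG00000020184), lay between 57.9 and 74.1 CPM in the 9 MYAZ libraries and between 134 and 211 CPM in the 21 libraries of the Myc310 lineage. Its lowest lineage culture was thus 1.81 times its highest MYAZ culture. LM2-LM stood alone at the top, with cultures at 210, 205 and 211 CPM, and LM1-LM, LM1 and LM3 followed at 150 to 156 CPM on average with overlapping cultures. The log2 difference from the MYAZ lines was 1.07 ± 0.10 for Myc310, 1.21 ± 0.08 for LM and 1.36 ± 0.08 for LM-LM.

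Ccng1 (chromosome 11, 40748552 to 40755311, minus strand, ENSMUSG00000020326) lay between 40.3 and 79.9 CPM in the MYAZ libraries and between 242 and 404 CPM in the lineage. LM1, LM2-LM and LM1-LM shared the top and overlapped at 398, 394 and 391 CPM, and Myc310, LM3, LM2 and LM3-LM followed without overlap at 314, 286, 257 and 245 CPM. Ccng1 was 5.53-fold, 5.54-fold and 5.99-fold higher than in the MYAZ lines in Myc310, LM and LM-LM.

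Eda2r (X chromosome, 97333840 to 97377216, minus strand, ENSMUSG00000034457) was the nearest to a presence or absence. No count fell on it in the 3 cultures of MYAZ16.1e, MYAZ12.3i had 7, 11 and 6 counts and MYAZ6.6g had 3, 7 and 1. The 21 libraries of the lineage had 444 to 1138 counts, or 19.1 to 46.2 CPM. Its lowest lineage culture was 37.9 times the highest MYAZ culture. Within the lineage LM2-LM was highest at 44.7 ± 1.33 CPM and LM3-LM lowest at 20.1 ± 0.86 CPM (SD, n = 3 each), neither overlapping its neighbour.

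Trp53inp1 (chromosome 4, 11156431 to 11174379, plus strand, ENSMUSG00000028211) and Zmat3 (chromosome 3, 32334792 to 32366014, minus strand, ENSMUSG00000027663) were also several-fold higher in the lineage. Trp53inp1 lay between 7.09 and 15.3 CPM in the MYAZ libraries, and its highest line was LM2 at 62.5 ± 3.64 CPM, followed by Myc310 at 53.01 ± 2.99 CPM. It stood 4.95-fold above the MYAZ lines for Myc310, 4.27-fold for the LM lines and 2.87-fold for the LM-LM lines. Zmat3 lay between 24.9 and 34.6 CPM in the MYAZ libraries and between 62.7 and 113 CPM in the lineage, and its difference was 2.91-fold, 2.88-fold and 2.92-fold.

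The nuclease gene Aen (chromosome 7, 78895854 to 78911209, plus strand, ENSMUSG00000030609) and the AKT competitor Phlda3 (chromosome 1, 135766119 to 135769136, plus strand, ENSMUSG00000041801) differed least among the 8 separated genes. Aen lay between 90.5 and 117 CPM in the MYAZ libraries and between 143 and 200 CPM in the lineage. Phlda3 lay between 61.2 and 74.8 CPM against 90.8 to 107 CPM, and it was the most even member within the lineage, where its highest line mean was 1.11 times its lowest. With counts summed per line the higher level of Aen in Myc310 no longer passed (adjusted p = 0.0599).

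Btg2 (chromosome 1, 134075170 to 134079120, minus strand, ENSMUSG00000020423) behaved apart. Its cultures in MYAZ16.1e stood at 3.86, 3.33 and 2.99 CPM, below every other culture, while MYAZ12.3i at 7.91 ± 0.43 CPM overlapped LM1 at 8.01 ± 0.26 CPM. The difference from the MYAZ lines was 0.01 ± 0.23 on the log2 scale in Myc310 (adjusted p = 0.978), 0.66 ± 0.16 in LM (adjusted p = 0.000788) and 0.50 ± 0.16 in LM-LM (adjusted p = 0.00772) by edgeR's quasi-likelihood test. With counts summed per line neither of the last was called (adjusted p = 0.136 and 0.225), and without MYAZ16.1e the difference of Myc310 turned to -0.28 and that of LM-LM fell short (0.22, adjusted p = 0.0752).

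Counted over the members, edgeR's quasi-likelihood test called 8 of 10 higher and 0 lower in Myc310 than in the MYAZ lines, where 23.8% of the 13795 genes tested were called higher and 27.1% lower. Trp53, at a log2 difference of -0.17 ± 0.08, and Btg2 were the remaining members. In LM 9 were higher and 1, Trp53, was lower, against 30.3% and 30.5% of all genes, and in LM-LM it was again 9 and 1, against 30.5% and 32.3%. The median log2 difference of the members was 1.31, 1.37 and 1.44, and the median of all genes tested was -0.02, 0.00 and -0.01. Without Eda2r, which had at most 11 counts per MYAZ library, 7 of 9 were higher in Myc310 and 8 of 9 in LM and in LM-LM, and the medians were 1.07, 1.21 and 1.36. With counts summed per line 7, 8 and 8 members were called higher and none lower. These 3 comparisons share the MYAZ libraries, and the members were chosen with earlier results of these data known.

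Per kilobase of annotated exon, a scale on which genes can be compared with each other, Trp53 was the most abundant member in MYAZ16.1e at 79.2 CPM per kb, followed by Phlda3 at 39.8, Ccng1 at 21.5 and Aen at 19.9 CPM per kb. In Myc310 the order was headed by Ccng1 at 89.3, followed by Phlda3 at 62.7 and Trp53 at 61.2 CPM per kb. Eda2r rose on this scale from 0 in MYAZ16.1e to 4.82 CPM per kb in Myc310, still below Zmat3 at 7.78 and Trp53inp1 at 8.19 CPM per kb.

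The regulators of p53 and its other targets were read from lists that, like the members, were chosen with earlier results of these data known. Their counts are descriptions and no independent support. Cdkn2a, the ARF gene, had 2894 to 4139 counts in every control library of the MYAZ lines and 0 counts in all 21 control libraries and all 9 deprived libraries of the Myc310 lineage. Against a floor of 3 counts over the 3 Myc310 cultures, Cdkn2a was at least 3059-fold higher in each MYAZ line. Mdm4, the partner of MDM2 in holding p53 down, was at 55.1 ± 2.26 CPM in the MYAZ lines (SD, n = 3 lines) and 66.8 ± 4.96 CPM in the LM lines, a log2 difference of 0.28 ± 0.07. Of 26 other p53 targets not shared with ATF4 or CHOP, 14 were higher and 6 lower in LM than in MYAZ by edgeR's quasi-likelihood test, against 30.3% and 30.5% of all genes, with a median log2 difference of 0.33. Perp, a membrane protein of cell junctions and cell death, had the largest log2 difference of these in LM (3.27 ± 0.24), with line means of 4.93 to 8.92 CPM in MYAZ, 83.1 CPM in Myc310, 32.8 to 81.2 CPM in LM and 30.4 to 61.9 CPM in LM-LM. Ptprv, a phosphatase gene, was higher by 1.61 ± 0.11 on the log2 scale in LM. Cd82, a tetraspanin (-1.79 ± 0.34), the death receptor Fas (-2.46 ± 0.41) and Dram1, an autophagy regulator (-2.61 ± 0.43), were lower in LM. Fas and Dram1 were at low levels, with 1.42 and 5.23 CPM in MYAZ16.1e and 0.72 and 0.24 CPM in LM1 in control medium. Cd82 stood at 41.3 and 4.84 CPM in these lines. With counts summed per line the higher calls in LM among all 31 other targets tested fell from 17 to 10 and the lower calls from 7 to 4.

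**Figure D2:**
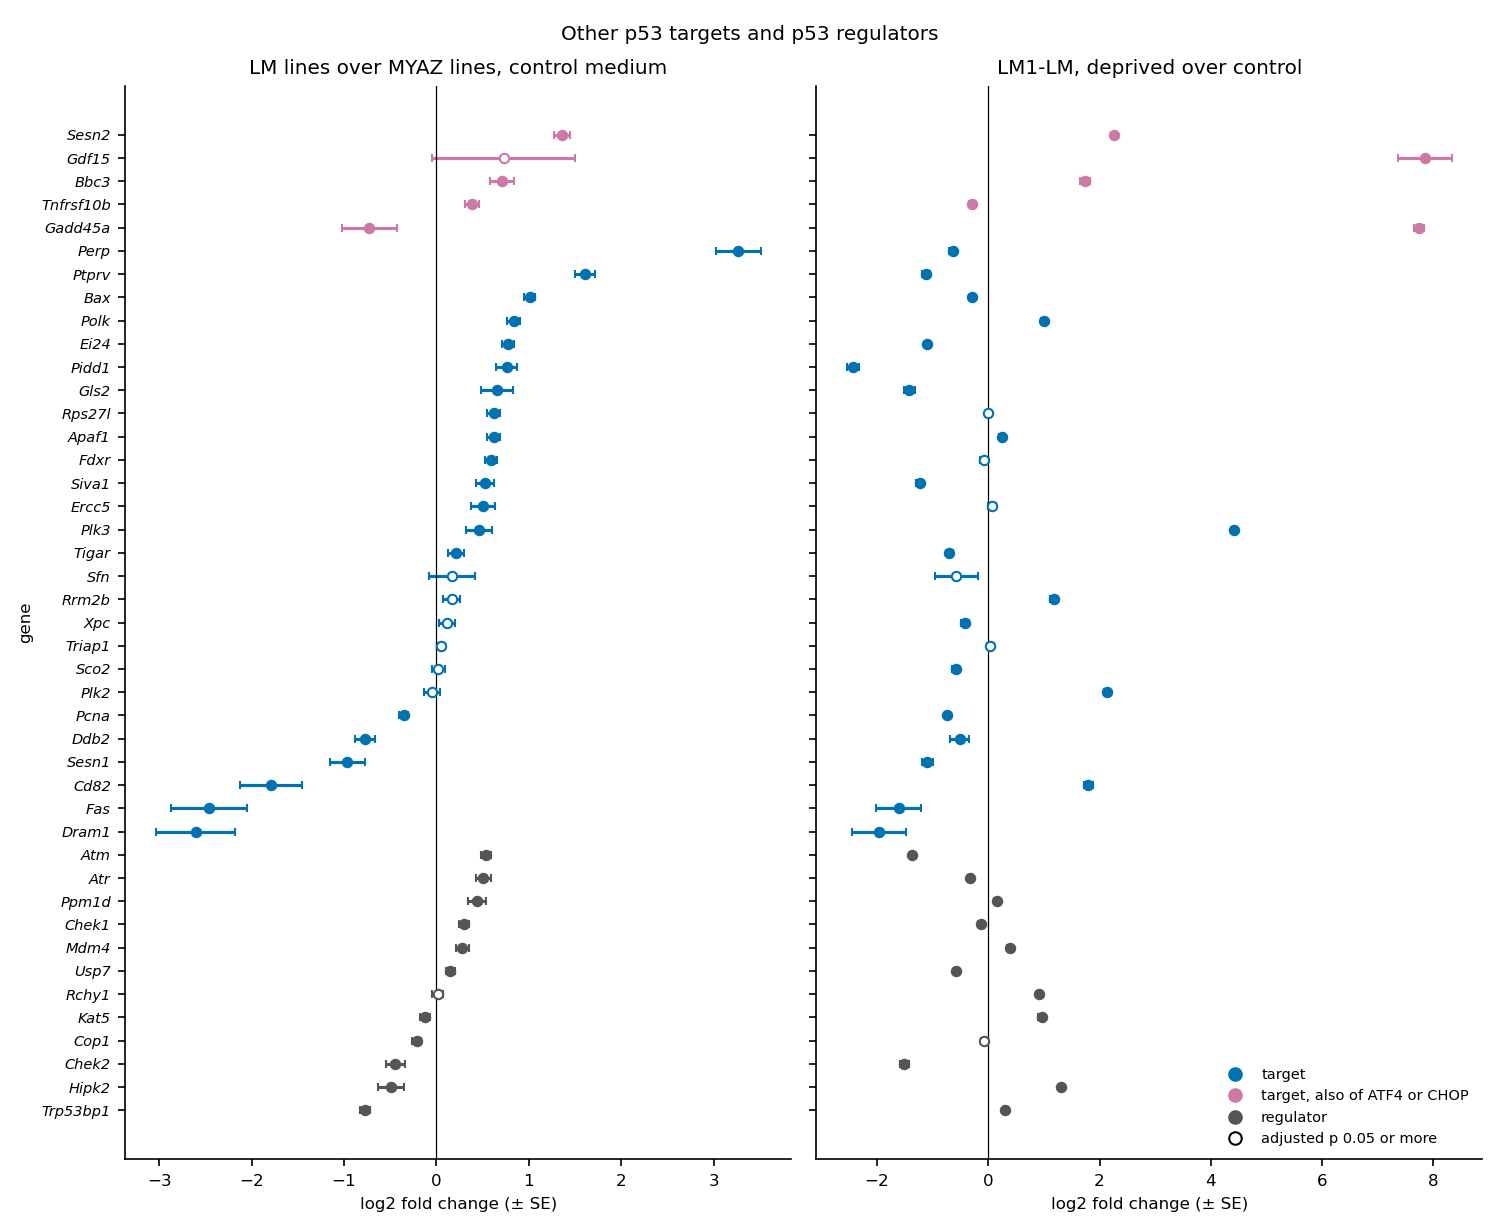
Log2 fold change with its SE (x axis) of other p53 targets and p53 regulators (y axis), for LM over MYAZ lines in control medium on the left and for LM1-LM after deprivation on the right. Open points had an adjusted p of 0.05 or more, Cdkn2a is not drawn because the lineage had 0 counts, and the targets spread to both sides of 0 in both panels, with Perp at 3.27 on the left and Gdf15 and Gadd45a above 7 on the right.

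The next question was whether the members changed along the steps from Myc310 to lung-derived lines. Each step left some members where they were and moved others, and Cdkn1a was higher in every lung-derived line than in Myc310. Against Myc310, 8 of 10 members differed in LM1 (7 higher, 1 lower), where 32.5% of the 13899 genes tested differed. In LM2 7 members differed, 4 higher and 3 lower, against 45% of genes, and in LM3 also 7, 4 higher and 3 lower, against 45.2%. Against LM1, only 2 members differed in LM1-LM, where 10.6% of genes did.

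The higher Cdkn1a of the lung-derived lines was 0.36 ± 0.04 on the log2 scale in LM1, 0.95 ± 0.04 in LM2 and 1.07 ± 0.04 in LM3 (adjusted p = 4.36e-10, 2.11e-22 and 3.88e-24 by edgeR's quasi-likelihood test). Btg2 was higher by 0.37 ± 0.12, 0.60 ± 0.11 and 0.91 ± 0.11 in the same lines, though in LM1 the call was lost without replicate 3 (0.24, adjusted p = 0.240). Mdm2 was higher by 0.18 ± 0.03 in LM1 and 0.16 ± 0.03 in LM3, and by 0.08 ± 0.03 in LM2, where each left-out replicate ended the call. Ccng1 went in opposite directions, with 0.33 ± 0.03 in LM1, -0.27 ± 0.04 in LM2 and -0.12 ± 0.04 in LM3. Trp53inp1 was lower in LM1 (-0.44 ± 0.07) and LM3 (-0.61 ± 0.07) and higher in LM2 (0.26 ± 0.07). The calls of Ccng1 in LM3 and of Trp53inp1 in LM2 were lost when replicate 3 and replicate 1 were left out (adjusted p = 0.0849 and 0.0705 by edgeR's quasi-likelihood test). Aen was higher in LM1 (0.26 ± 0.03), and its calls in LM2 (-0.07 ± 0.03, adjusted p = 0.0463) and LM3 (0.07 ± 0.03, adjusted p = 0.048) were lost in several alternatives, among them the filter of at least 10 counts in every library (adjusted p = 0.0577 and 0.0679). Zmat3 was higher in LM1 (0.21 ± 0.05) and lower in LM3 (-0.21 ± 0.05), and in LM2 it stood at -0.09 ± 0.05 (adjusted p = 0.133), or -0.18 without replicate 1 (adjusted p = 0.00716 by edgeR's quasi-likelihood test). Eda2r was higher in LM1 only (0.30 ± 0.07) among the calls, with 0.10 ± 0.07 in LM2 and -0.15 ± 0.07 in LM3. Phlda3 was called in none of the 3, and Trp53 was lower in LM2 (-0.12 ± 0.03), with -0.06 ± 0.03 in LM1 (adjusted p = 0.065, and 0.0476 with at least 10 counts in every library, by edgeR's quasi-likelihood test). From LM1 to LM1-LM, Trp53inp1 dropped from cultures at 37.7, 40.6 and 40.2 CPM to 29.8, 30.6 and 26.3 CPM without overlap (log2 difference -0.45 ± 0.08, adjusted p = 8.85e-05 by edgeR's quasi-likelihood test). Cdkn1a rose by 0.11 ± 0.04 (adjusted p = 0.0414), a call that every left-out replicate ended.

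**Figure D3:**
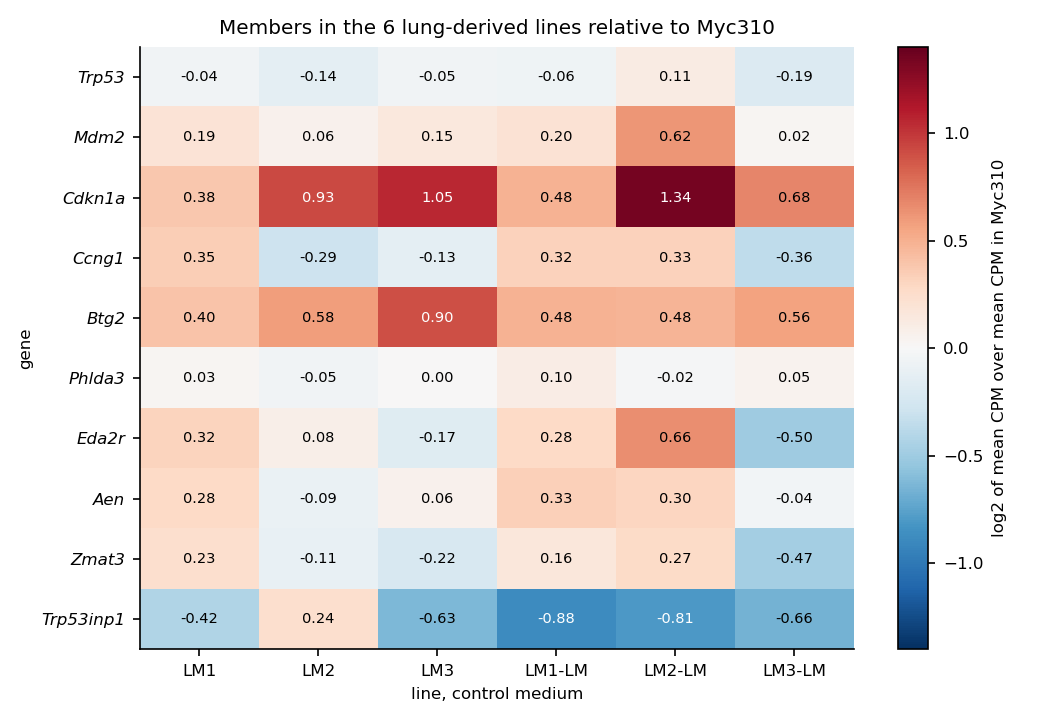
Colour and number give the log2 ratio of the mean CPM of each of 6 lung-derived lines (x axis) over that of Myc310, for Trp53 and its 9 targets (y axis), all in control medium with 3 cultures per line. Cdkn1a and Btg2 are above 0 in every column, Trp53inp1 is below 0 in all but LM2, and Phlda3 stays within 0.10 of 0.

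Lines of the same group differed from one another as well. All 10 members differed among the 3 MYAZ lines, which are separate founders, where 73.7% of genes did. Among the 3 LM lines 9 differed against 61.3%, and among the 3 LM-LM lines 9 against 67.6%, so that differences within a group were common to most genes. Without Eda2r, at 0 to 11 counts per MYAZ library, these were 9, 8 and 8 of 9. The member not called was Phlda3 among LM and Btg2 among LM-LM. Several calls were lost when 1 replicate was left out. Among LM these were Trp53 without replicate 1 or 2 (adjusted p = 0.0877 and 0.0584 by edgeR's quasi-likelihood test) and Mdm2 without replicate 2 or 3 (0.0708 and 0.0722). Among LM-LM they were Phlda3 without replicate 1 or 3 (adjusted p = 0.170 and 0.0837) and Trp53inp1 without replicate 2 or 3 (0.0566 and 0.216). The widest spread within the lineage was that of Cdkn1a, whose highest line mean was 2.52 times its lowest, followed by Eda2r at 2.22 times and Trp53inp1 at 2.16 times.

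The targets did not rank the 7 lines of the lineage alike. Over the 7 line means of log2 CPM, which share the tumour of origin, Pearson's r was 0.956 between Zmat3 and Eda2r, 0.951 between Aen and Ccng1 and 0.929 between Zmat3 and Ccng1. Cdkn1a went with Btg2 (0.724) and Mdm2 (0.634) but not with Ccng1 (-0.09) or Zmat3 (-0.05). Trp53inp1 had a negative r with every other member, down to -0.68 with Aen. Mdm2 and Trp53 had an r of 0.778, with LM2-LM highest in the lineage for both (209 and 268 CPM). Myc310 had the lowest Mdm2 of the lineage (136 CPM), with its Trp53 next below LM2-LM (248 CPM). The 3 genes most like each member over the 11 line means were drawn from all genes of the table. These lines fall into 2 clusters, MYAZ and the Myc310 lineage, so the values mostly describe that split. Zmat3 was most like Bax, itself a p53 target that opens mitochondria in apoptosis, with an r of 0.990, and then Atp2a2 and Ascc3. Cdkn1a was most like Dnmt3a, Rprml and Mcts2 (0.986 to 0.984), Mdm2 like Got1, Rhog and Ccnh (0.993 to 0.986), Ccng1 like Ippk, P2ry10b and Pitpnm2 (0.994 to 0.992), and Eda2r like Uvrag, Nid1 and Ydjc (0.993 to 0.989). Phlda3 was most like Micu2, Tmem259 and Eif4g3 (0.995 to 0.990), Aen like Hras, Arpin and Gnb1l (0.984 to 0.979), Trp53inp1 like Itpr2, Lyn and Mkrn3 (0.991 to 0.974), Btg2 like Bdnf, Dzip1 and Osbpl8 (0.957 to 0.929) and Trp53 like Abcf2, Pacrgl and Zfp397 (0.972 to 0.953). No member was among the 3 genes most like another.

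In the NDI1-expressing line of MYAZ12.3i Trp53 was the 1 member of 10 called against the parent, where 17.4% of the 12841 genes tested were, with cultures at 290, 286 and 292 CPM against 262, 265 and 278 CPM in the parent (log2 difference 0.10 ± 0.03, adjusted p = 0.0182 by edgeR's quasi-likelihood test), and without replicate 1 or 2 it was not called. The log2 difference of Cdkn1a was 0.15 ± 0.06 and that of Mdm2 0.11 ± 0.04, and neither passed (adjusted p = 0.131 and 0.0802). Eda2r had 14, 11 and 19 counts against 7, 11 and 6.

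Removing cysteine and cystine for 6 h asked how p53 and its targets respond when the cells cannot take up the precursor of glutathione. The members split. Trp53 and Aen fell in all 4 lines, Mdm2, Cdkn1a, Btg2 and Eda2r rose in all 4, and the others went up in MYAZ16.1e but down, or short of the threshold, in lines of the Myc310 lineage, apart from Trp53inp1, which also rose in LM1 and LM1-LM.

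**Figure D4:**
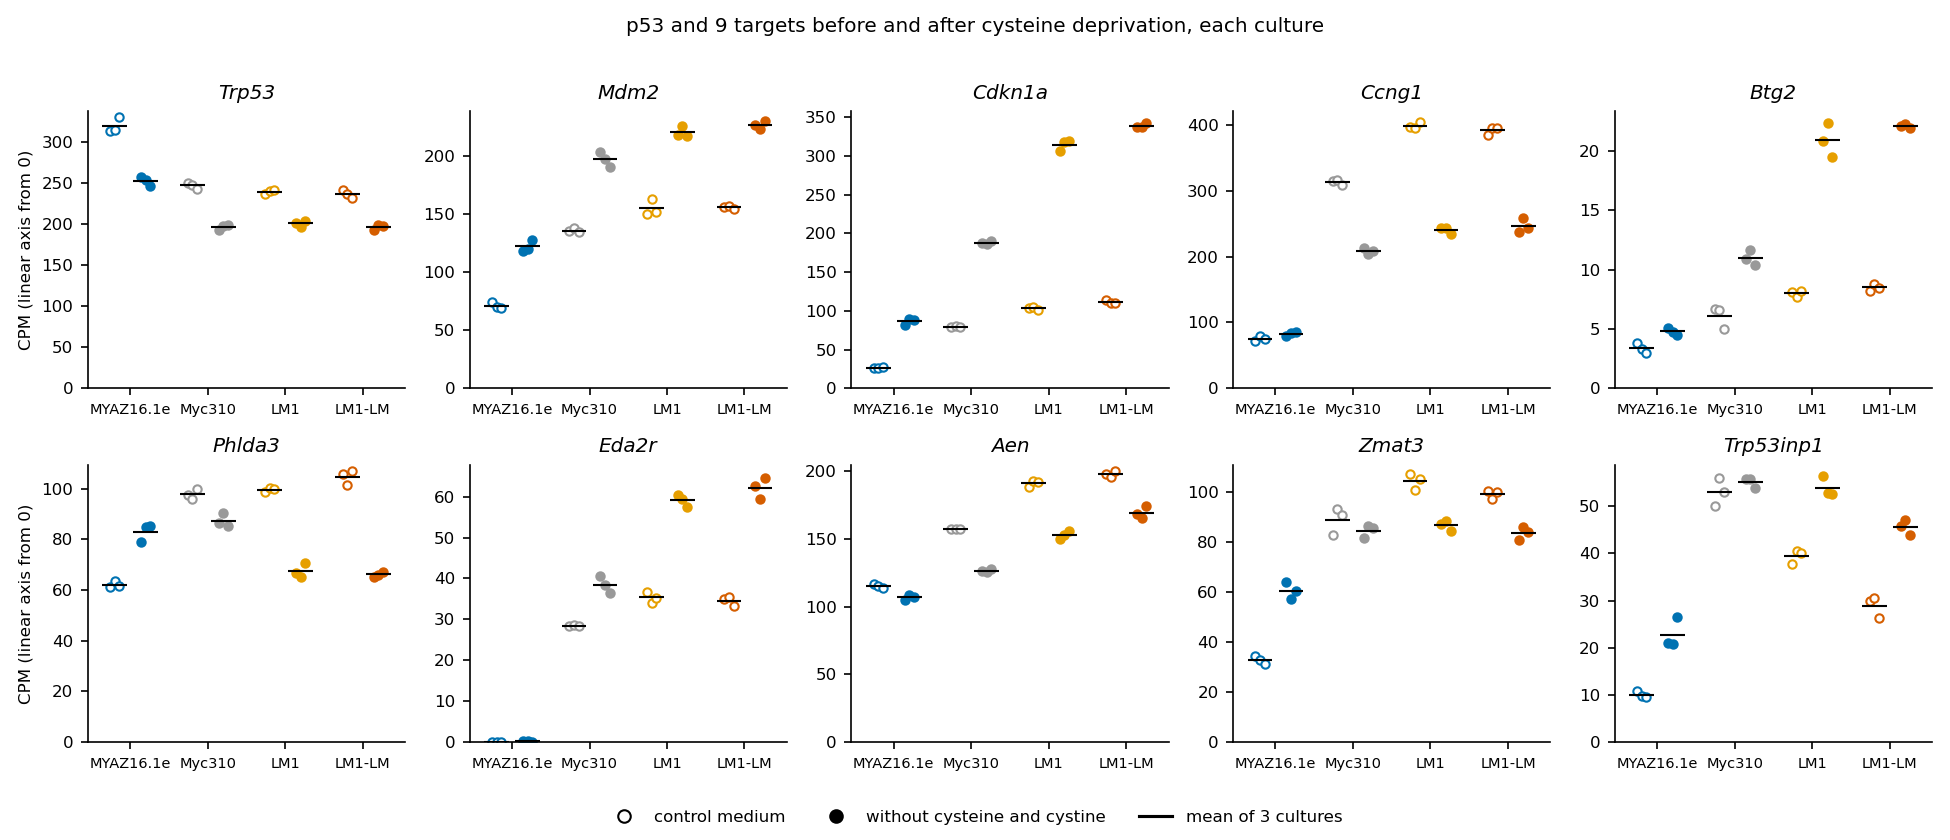
Level of Trp53 and its 9 targets (y axis, CPM on a linear axis from 0) in each culture of 4 lines (x axis), in control medium (open points) and after 6 h without cysteine and cystine (filled points), with a black bar at the mean of 3 cultures. Cdkn1a and Mdm2 rise without overlap in every line, while Ccng1 and Phlda3 fall without overlap in Myc310, LM1 and LM1-LM.

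Cdkn1a rose most among the members with reads in every group. In MYAZ16.1e it went from 25.7, 26.2 and 27.7 CPM to 82.2, 89.9 and 88.5 CPM, and in Myc310 from 79.7, 80.1 and 78.9 CPM to 188, 186 and 190 CPM. In LM1 it went from 104, 105 and 101 CPM to 306, 318 and 319 CPM, and in LM1-LM from 114, 110 and 110 CPM to 337, 337 and 342 CPM. No deprived culture overlapped a control culture of its line, and the deprived MYAZ16.1e cultures reached the level that Myc310 had in control medium. The folds were 3.25, 2.34, 3.12 and 3.12, with log2 changes of 1.70 ± 0.04, 1.23 ± 0.03, 1.64 ± 0.03 and 1.64 ± 0.03 (adjusted p at most 8.08e-25 by edgeR's quasi-likelihood test).

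Mdm2 rose from 74.1, 69.6 and 68.8 CPM to 118, 120 and 128 CPM in MYAZ16.1e, and from 135, 138 and 134 CPM to 203, 197 and 190 CPM in Myc310. The mean went from 155 ± 7.15 to 220 CPM for LM1, and LM1-LM went from 156 ± 1.29 to 226 CPM. The folds were 1.72, 1.44, 1.46 and 1.49, again with no overlap. Btg2 rose 1.42-fold in MYAZ16.1e, 1.78-fold in Myc310 and 2.67-fold in both LM1 and LM1-LM, and in LM1 it went from 8.09, 7.72 and 8.21 CPM to 20.8, 22.4 and 19.5 CPM. Eda2r went from 0 counts in each control culture of MYAZ16.1e to 4, 7 and 3 counts, at least 4.94-fold higher against a floor of 3 counts over the group, and rose 1.34-fold, 1.72-fold and 1.85-fold in Myc310, LM1 and LM1-LM, reaching 62.5, 59.4 and 64.5 CPM in the last.

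Trp53 fell from 315, 315 and 331 CPM to 257, 254 and 247 CPM in MYAZ16.1e, and from 251, 248 and 243 CPM to 193, 198 and 199 CPM in Myc310. In the order MYAZ16.1e, Myc310, LM1, LM1-LM its log2 change was -0.35 ± 0.03, -0.34 ± 0.03, -0.22 ± 0.03 and -0.23 ± 0.03, and no cultures overlapped. Thus the transcript of the factor fell in the same cultures in which Cdkn1a and Mdm2 rose. Aen fell by less in MYAZ16.1e (-0.12 ± 0.03) than in Myc310 (-0.33 ± 0.03), with -0.29 ± 0.02 in LM1 and -0.18 ± 0.02 in LM1-LM.

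Ccng1, Phlda3 and Zmat3 went in opposite directions in MYAZ16.1e and in the lung-derived lines. Ccng1 fell from 315, 316 and 309 CPM to 213, 204 and 209 CPM in Myc310, from 397, 394 and 404 CPM to 243, 243 and 233 CPM in LM1. In LM1-LM its mean fell from 391 ± 6.18 to 247 CPM. In MYAZ16.1e it stood at 72.4, 79.9 and 74.1 CPM before and 79.0, 84.1 and 85.2 CPM after, and these overlapped (log2 change 0.13 ± 0.04, adjusted p = 0.00358 by edgeR's quasi-likelihood test, and 0.156 without replicate 3). Phlda3 rose from 61.2, 63.6 and 61.5 CPM to 79.1, 84.8 and 85.3 CPM in MYAZ16.1e and fell from 98.8, 100.3 and 99.9 CPM to 66.7, 65.1 and 70.7 CPM in LM1. Its log2 change, 0.42 ± 0.04 for MYAZ16.1e, was -0.18 ± 0.03 for Myc310, -0.53 ± 0.04 for LM1 and -0.63 ± 0.04 for LM1-LM. Zmat3 rose from 34.6, 32.7 and 31.1 CPM to 64.2, 57.3 and 60.5 CPM in MYAZ16.1e, a 1.85-fold rise, and its log2 change was -0.09 ± 0.04 in Myc310 (adjusted p = 0.0868, but 0.0196 with upper-quartile scaling and 0.0268 without replicate 1, by edgeR's quasi-likelihood test), -0.23 ± 0.04 in LM1 and -0.21 ± 0.04 in LM1-LM.

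Trp53inp1 rose 2.28-fold in MYAZ16.1e, from 10.8, 9.67 and 9.58 CPM to 20.9, 20.7 and 26.6 CPM. It rose 1.4-fold in LM1 and 1.62-fold in LM1-LM, and in Myc310 the cultures at 50.0, 55.96 and 53.1 CPM before and 55.8, 55.8 and 53.9 CPM after overlapped (adjusted p = 0.532 by edgeR's quasi-likelihood test). After deprivation its means in Myc310, LM1 and LM1-LM were 55.2, 54.0 and 45.7 CPM, closer together than the 53.01, 39.5 and 28.9 CPM before.

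**Figure D5:**
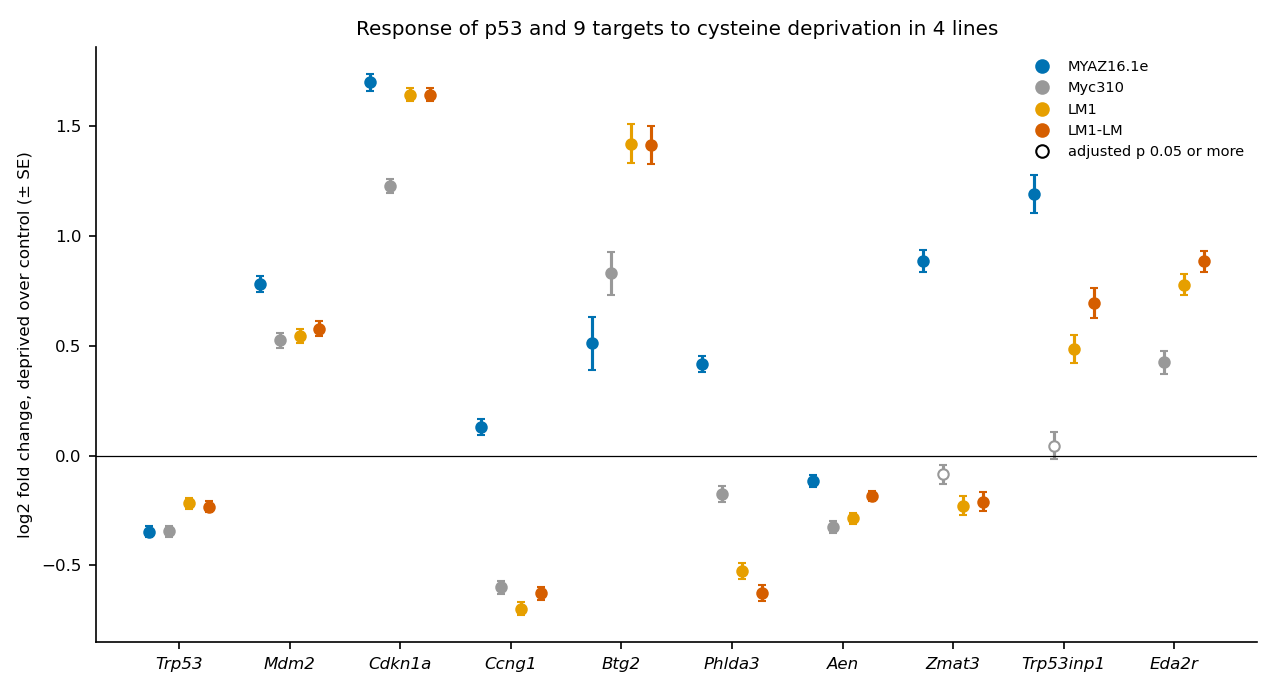
Log2 fold change with its SE (y axis) after 6 h without cysteine and cystine, for Trp53 and its 9 targets (x axis) in the 4 deprived lines, with 3 cultures per group. Open points had an adjusted p of 0.05 or more, Eda2r of MYAZ16.1e is not drawn because its controls had 0 counts, and Ccng1, Phlda3 and Zmat3 lie above 0 in MYAZ16.1e and below 0 in the other 3 lines.

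Counted over the members by edgeR's quasi-likelihood test, 8 rose and 2 fell in MYAZ16.1e, where 26.6% of the 13400 genes tested rose and 27.1% fell. These 8 include Eda2r, which passed the filter through the Myc310 lineage, and without it 7 rose and the median log2 change was 0.51. In Myc310 4 rose and 4 fell, against 32.8% and 33.9% of genes, in LM1 5 and 5, against 35.8% and 35.3%, and in LM1-LM 5 and 5, against 36.5% and 35.9%. The median log2 change of all 10 members was 0.65, -0.02, 0.13 and 0.20 in the 4 lines, and that of all genes lay between -0.01 and 0. Without Eda2r 3 rose and 4 fell in Myc310 and 4 rose and 5 fell in both LM1 and LM1-LM, and the medians of these lines were all negative, at -0.09, -0.22 and -0.18. The members of Myc310, LM1 and LM1-LM thus divided between the directions much as all genes did.

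The difference between responses was tested directly, with MYAZ16.1e as the reference in each case, so that the 3 tests share its 6 libraries. In Myc310 8 of 10 members responded differently, where 40.3% of genes did, all 8 with a lower log2 change. In LM1 9 did, 7 lower and 2 higher, against 52.2% of genes, and in LM1-LM 8 did, 6 lower and 2 higher, against 54.8%. These counts include Eda2r, whose fitted difference rests on 0 counts in the MYAZ16.1e controls and is no bound, and without it they were 7 of 9 (all lower), 8 of 9 (6 lower) and 7 of 9 (5 lower). Zmat3 differed by -0.97 ± 0.07, -1.12 ± 0.07 and -1.10 ± 0.07 and Ccng1 by -0.73 ± 0.05, -0.83 ± 0.05 and -0.76 ± 0.05 (adjusted p at most 1.23e-12 for Zmat3 and 4.06e-13 for Ccng1 by edgeR's quasi-likelihood test). Cdkn1a responded less in Myc310 by 0.47 ± 0.05 as a log2 difference, and in LM1 and LM1-LM the difference was -0.06 ± 0.05 in both (adjusted p = 0.354 and 0.344). With upper-quartile scaling these last passed (-0.14 in both, adjusted p = 0.0176 and 0.0127), and those of Trp53, 0.13 ± 0.04 in LM1 and 0.11 ± 0.04 in LM1-LM, no longer did (adjusted p = 0.269 and 0.529). Leaving out replicate 3 ended the calls of Trp53 as well (adjusted p = 0.121 and 0.306). The difference of Aen in LM1-LM (-0.07 ± 0.04, adjusted p = 0.102) passed with upper-quartile scaling (-0.16, adjusted p = 0.000419), with RLE scaling (adjusted p = 0.0385) and with at least 10 counts in every library (adjusted p = 0.0434). Btg2 responded more in LM1 (0.91 ± 0.15) and in LM1-LM (0.90 ± 0.15).

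Among the other p53 targets, those shared with the amino acid stress factors ATF4 and CHOP had the higher median change. Of the 5 tested, 4 rose and 1 fell in each of the 4 lines, with a median log2 change of 3.44 in MYAZ16.1e and 2.26 in LM1-LM. Gadd45a, a stress and repair gene, rose from 5.79 to 134 CPM in MYAZ16.1e and from 1.63 to 343 CPM in LM1-LM. Sesn2, which restrains mTORC1, rose from 19.6 to 214 CPM in MYAZ16.1e and from 47.3 to 220 CPM in LM1-LM. Gdf15, a secreted stress cytokine, went from 0 or 1 count to 54 to 75 counts per culture in MYAZ16.1e and from 0 or 1 to 87 to 123 counts in LM1-LM. Of the 26 targets not shared with these factors, 7 rose and 10 fell in MYAZ16.1e, 6 and 13 in Myc310, 6 and 15 in LM1 and 6 and 15 in LM1-LM, and their median log2 change was -0.04, -0.20, -0.43 and -0.54. Of all genes 26.6%, 32.8%, 35.8% and 36.5% rose in these lines and 27.1%, 33.9%, 35.3% and 35.9% fell. The kinase gene Plk3 rose most among them, from 34.0 to 135 CPM in MYAZ16.1e and from 30.5 to 632 CPM in LM1-LM, and Rrm2b, a ribonucleotide reductase subunit, rose from 15.03 to 36.8 CPM in MYAZ16.1e. Pidd1, a death domain adaptor, fell by 1.78 ± 0.10 on the log2 scale in Myc310 and by 2.46 ± 0.11 in LM1. Mdm4 rose in each line, by 0.14 ± 0.04 in MYAZ16.1e and 0.58 ± 0.04 in Myc310, and Cdkn2a changed by -0.15 ± 0.04 in MYAZ16.1e and stayed at 0 counts elsewhere. The part of ATF4 and CHOP in the members' changes was not tested.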

How the data were processed

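RNA-seq of 45 cultures was analysed. Per the labels and the study's methods, the authors made NEBNext Ultra II Directional polyA libraries, sequenced them paired-end, aligned reads to GRCm38 with STAR and quantified genes with RSEM, and they deposited whole-number counts per gene and library. The submitters' processing notes also name DESeq2 1.38.3 and R 4.2.2. From these counts CPM with TMM scaling were computed, and groups were compared with edgeR 4.0.16's quasi-likelihood test in R 4.3.3 after filterByExpr, with Benjamini-Hochberg adjustment over all genes tested and a threshold of 0.05. Separate fits covered deprivation (24 libraries), subtypes (30), lines (33) and NDI1 (6), and fold changes are edgeR's fitted values. The scripts were tested on simulated data. Alternatives were RLE and upper-quartile scaling, no filter, at least 10 counts in every library, DESeq2 1.42.0, a replicate block, left-out replicates or lines, single-line fits, counts summed per line and voom (limma 3.58.1) with a random line effect. Same-numbered cultures did not deviate together, so numbers were not treated as pairs. The members and gene lists were chosen with earlier results of these data known. All members were named. Of the lists of other targets and regulators, called genes with an absolute log2 change of at least 1 could be named, at most 6 per comparison, plus Mdm4 and Cdkn2a. Likeness was Pearson's r of log2 CPM (prior count 2) over line means. Gene positions were matched by identifier to GENCODE M21 (28407 of 28454 genes). The counts limit precision through counting error as well as spread between cultures.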

Additional observations from a re-analysis of the deposited data

Results flagged for a closer look

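Responses to deprivation that differed from that of MYAZ16.1e in edgeR's test of the difference itself were picked out for 25 pairs of a member and a line. In Myc310 the log2 response minus that of MYAZ16.1e was -0.26 for Mdm2, -0.47 for Cdkn1a, -0.73 for Ccng1, -0.59 for Phlda3, -0.21 for Aen, -0.97 for Zmat3 and -1.15 for Trp53inp1. In LM1 it was 0.13 for Trp53, -0.24 for Mdm2, -0.83 for Ccng1, 0.91 for Btg2, -0.94 for Phlda3, -0.17 for Aen, -1.12 for Zmat3 and -0.71 for Trp53inp1. In LM1-LM it was 0.11 for Trp53, -0.20 for Mdm2, -0.76 for Ccng1, 0.90 for Btg2, -1.04 for Phlda3, -1.10 for Zmat3 and -0.50 for Trp53inp1. For Eda2r the fitted differences of -4.82, -4.46 and -4.36 rest on control cultures of MYAZ16.1e with 0 counts, so they depend on the prior count and are no bound. The 3 tests share the MYAZ16.1e libraries. In 30 sets of 9 libraries (10 members in each of the MYAZ, LM and LM-LM lines), 0 had a sample far from the others.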

How the results depend on the processing

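Calls in either direction were counted together here, apart from deprivation and the comparisons with MYAZ, where each direction was counted. So taken, the counts of members called kept within 1.5 times of their value under the alternatives run, except as follows. The count lower in Myc310 than in MYAZ went from 0 to 1 (Trp53) with at least 10 counts in every library, with DESeq2, and without the line LM2-LM or MYAZ6.6g. The counts lower in LM and in LM-LM than in MYAZ went from 1 to 0 with counts summed per line. The count in LM1-LM against LM1 went from 2 to 1 without the filter and was 1 (range 1 to 1) without any replicate. The count in the NDI1 line was 0 to 1 with a replicate left out. The split by direction moved further. In LM2 against Myc310, Mdm2 and Trp53inp1 were no longer called higher without replicate 1. In the responses of LM1 and LM1-LM, Trp53 was no longer called higher with upper-quartile scaling or without replicate 3, nor in LM1-LM without replicate 2. Signs turned for differences near 0. Trp53 in the response of Myc310 (0.0025) gave -0.032 with upper-quartile scaling and -0.058 to 0.054 with a replicate left out. Btg2 in Myc310 against MYAZ (0.01) gave -0.00098 with upper-quartile scaling, -0.0089 with at least 10 counts in every library, -0.031 and -0.042 without replicate 1 or 2, and -0.28 without MYAZ16.1e to 0.25 without MYAZ12.3i. Phlda3 in LM3 against Myc310 gave -0.0049 without the filter and -0.0019 to 0.041 with a replicate left out, in LM1 -0.011 to 0.027, and in LM2 -0.10 to 0.012. Trp53inp1 in deprived Myc310 gave -0.0062 to 0.079. In LM1-LM against LM1, Mdm2 gave -0.020, -0.0043 and 0.041, and Trp53 -0.044 to 0.0061. In the NDI1 line, Ccng1 gave -0.085 to 0.029 and Trp53inp1 -0.23 to 0.13. The cause was not tested. With the replicate block the members' counts were as without it (8 up and 2 down in MYAZ16.1e), and deviations of same-numbered cultures in the deprivation libraries had a median correlation of -0.01. Of the other p53 targets, those higher and lower with counts summed per line went from 16 and 6 to 8 and 1 in Myc310 against MYAZ, from 17 and 7 to 10 and 4 in LM and from 18 and 7 to 11 and 4 in LM-LM, and limma-voom with a random line effect left 2 lower in Myc310. Those that differed went from 16 to 9 without replicate 2 in LM1 against Myc310, from 3 to 0 or 1 without replicate 2 or 3 in LM1-LM against LM1, and from 6 to 2 or 3 with a replicate left out in the NDI1 line. At most 11 counts per MYAZ library in control medium limit Eda2r.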
